A study of Mus musculus with 9 samples.

Results

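Expression of plakophilins and other desmosome genes was followed in ROC6, a murine oral squamous cell line, after knockout of Csmd3, a gene for a large membrane protein with CUB and sushi domains. The set was chosen by name, with earlier results of these data known. Its 10 genes were the plaque genes Pkp1, Pkp2, Pkp3, Dsp and Jup, the desmosomal cadherins Dsg2, Dsc2 and Dsc3, tetraspan Perp and hemidesmosomal Col17a1. Of these, 6 had exactly 1 row among the 15446 uniquely named genes of the table, and 4 (Pkp1, Pkp2, Jup and Perp) had a mean of 1 FPKM or more over all libraries and were tested among 6965 genes. Pkp3 and Col17a1 had a row but a mean under 1 FPKM. Dsp, Dsg2, Dsc2 and Dsc3 had no row and are unmeasured here. The name of the deposited table speaks of changed genes common to the knockouts, so a missing row may come from that selection and says nothing of a gene's level.

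The 9 libraries form 3 groups of 3: ROC6 cells with genotype CSMD3 knockout made with guide 1, the same genotype made with guide 2, and a WT Control without the knockout. All were grown in the same serum-containing medium. The headers of the control columns carry the tag g1, as those of guide 1 do, while the sample titles say only WT Control. The series describes the knockouts as clone 1 and clone 2, so the effect of a guide and that of being 1 clone cannot be told apart. Nothing in the labels says that the 3 libraries of a group came from separate cultures, so a p-value here weighs a difference only against the spread of these libraries, and that spread may be technical.

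Desmosomes are patches of cell-cell adhesion that resist mechanical pull in epithelia and heart muscle. Their cadherins, the desmogleins and desmocollins, span the membrane and bind those of the neighbouring cell. Inside the cell, the armadillo proteins plakoglobin (Jup) and the plakophilins join the cadherin tails to desmoplakin (Dsp), which holds the keratin filaments. In stratified epithelia such as the oral mucosa, Pkp1 is known from the upper layers, Pkp2 from the basal layer and from simple epithelia, and Pkp3 from most layers.

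Among the tested members, only Jup had an entry in the RefSeq promoter table used here. Its promoter is shown because Jup was, with Pkp2, the member that rose most with guide 1. The 250 bases before its start lie at chr11:100397791-100398040 on the minus strand of GRCm38.p6. They are printed 5′ to 3′, with capitals at each match to the GC box GGGCGG on either strand.
Jup: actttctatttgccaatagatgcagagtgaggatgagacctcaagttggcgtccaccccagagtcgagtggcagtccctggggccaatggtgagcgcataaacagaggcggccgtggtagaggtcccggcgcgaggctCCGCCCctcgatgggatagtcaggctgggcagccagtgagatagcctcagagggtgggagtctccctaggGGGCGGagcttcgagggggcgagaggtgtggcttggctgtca
The GC box had 2 matches, whose first bases lay 112 and 42 bases before the start. Of all 32851 promoter windows of this length, 32.7% held at least 1 such match. The E-box CANNTG and the AP-1 motif TGANTCA, searched on both strands, had 0 matches each, where 66.2% and 6.75% of all windows held one. A match is a description of these letters and not evidence of a bound factor.

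FPKM scales the fragments of a gene to its length and to the mapped total of the library. The read total is thereby removed, so the depth behind each value is unknown. Summed FPKM over uniquely named genes lay between 162625 and 168620 per library, and libraries correlated across genes, on the log2 scale, at 0.991 to 0.993 within groups and 0.893 to 0.950 across groups. Genes are not independent replicates, so these correlations carry no p-value. The targeted gene Csmd3 was not analysed here, and the genotypes are taken from the labels alone. In all 6965 tested genes the knockout means were both above or both below that of the control, which is a property of the table. A shared direction of the guides is therefore no result, and shares of all tested genes describe these selected rows and not the whole transcriptome.

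Pkp1 and Pkp2 were both near 1 FPKM in the control and higher in every knockout library, but each guide favoured a different one. Pkp1, which clusters desmosomal cadherins at the plaque, measured 1.32, 0.728 and 1.16 FPKM in the control, 4.26, 4.17 and 4.66 in the guide 1 knockout, and 8.80, 9.11 and 9.39 in the guide 2 knockout. The 3 groups did not overlap, and guide 2 gave the highest level. In means this was a rise from 1.07 ± 0.307 FPKM (SD, n = 3) to 4.36 ± 0.260 and 9.10 ± 0.293, or 4.08-fold and 8.51-fold. On the log2(FPKM + 1) scale, which understates the change of a gene this low, Pkp1 rose by 1.38 with guide 1 (SE 0.0991, limma adjusted p = 6.37e-07) and by 2.30 with guide 2 (SE 0.0991, limma adjusted p = 1.92e-08).

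Pkp2, the plakophilin of basal and simple epithelia and of the heart, measured 0.948, 0.951 and 1.27 FPKM in the control, 11.2, 11.6 and 12.2 in the guide 1 knockout, and 5.54, 5.02 and 5.63 in the guide 2 knockout. Here guide 1 gave the highest level, and again no library of a group reached another group. The means were 1.06 ± 0.186 FPKM in the control, 11.7 ± 0.486 under guide 1 and 5.40 ± 0.327 under guide 2, or 11.03-fold and 5.10-fold the control. The log2 fold changes were 2.62 with guide 1 (SE 0.0744, limma adjusted p = 8.05e-10) and 1.64 with guide 2 (SE 0.0744, limma adjusted p = 2.85e-08). With guide 1, 46 of the 6965 tested genes had a larger increase than Pkp2 and 235 had a larger increase than Pkp1. With guide 2, these counts were 107 for Pkp2 and 42 for Pkp1. With a pseudocount of 0.1 FPKM in place of 1, the log2 fold changes of Pkp2 were 3.36 and 2.26 and those of Pkp1 1.97 and 3.01, with guide 1 and guide 2.

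**Figure D1:**
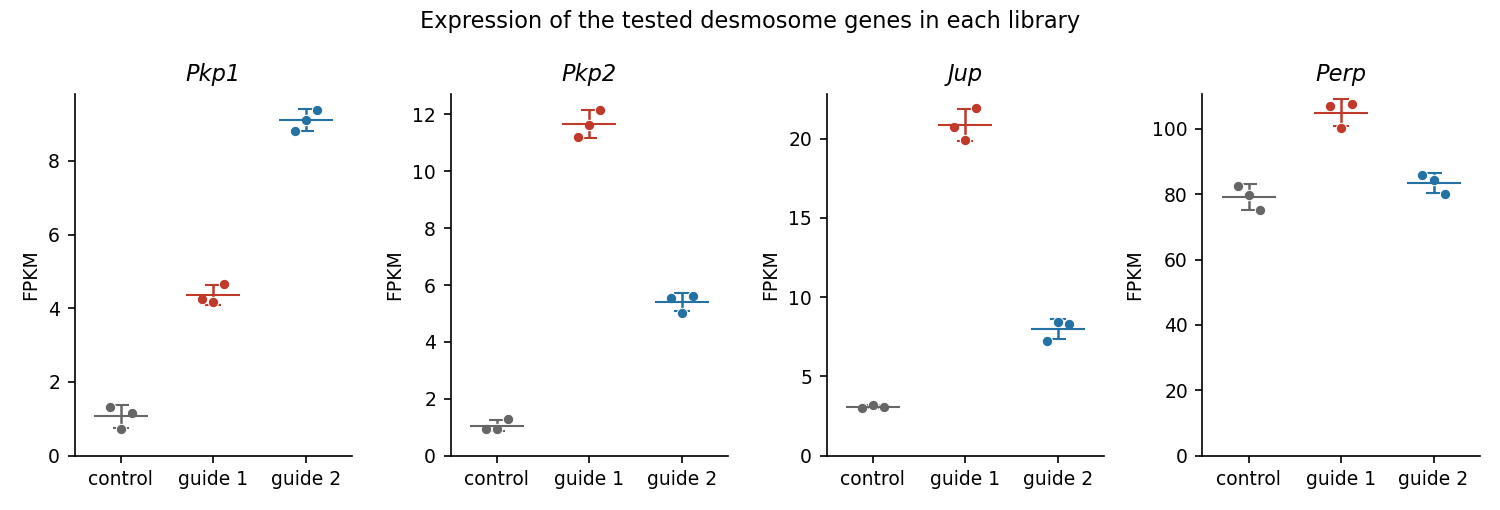
FPKM of Pkp1, Pkp2, Jup and Perp (vertical axes, linear from 0, each on its own scale) in control, guide 1 and guide 2 libraries. Points are single libraries, horizontal lines are means and bars are SDs over 3 libraries. Pkp1 was highest with guide 2 (9.10 FPKM), Pkp2 and Jup with guide 1 (11.7 and 20.9 FPKM), and the Perp libraries of guide 2 overlapped those of the control.

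Jup encodes plakoglobin, the armadillo protein that binds the cadherin tails in desmosomes and can also join adherens junctions. The control libraries measured 3.00, 3.21 and 3.07 FPKM, the guide 1 libraries 20.7, 19.9 and 21.9, and the guide 2 libraries 7.26, 8.42 and 8.28. The groups did not overlap, and the guide 1 libraries were the highest. Jup rose 6.74-fold with guide 1 and 2.58-fold with guide 2 in means of FPKM, from 3.09 ± 0.112 FPKM to 20.9 ± 0.991 and 7.99 ± 0.633. On the log2 scale Jup rose by 2.42 with guide 1 (SE 0.0630, limma adjusted p = 4.5e-10) and by 1.13 with guide 2 (SE 0.0630, limma adjusted p = 1.23e-07). With guide 1, 64 tested genes had a larger increase, and with guide 2, 226 had.

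Perp, a tetraspan membrane protein that stratified epithelia need for stable desmosomes, had the highest level of the tested members. Its control libraries lay at 82.6, 79.8 and 75.0 FPKM, those of guide 1 at 107, 100.2 and 108, and those of guide 2 at 85.8, 84.4 and 80.1. Guide 1 lay above every other library, while guide 2 overlapped the control. Perp rose by 0.40 on the log2 scale with guide 1 (SE 0.0508, limma adjusted p = 4.47e-05), a 1.33-fold difference of the means of 105 ± 4.15 and 79.1 ± 3.84 FPKM. With guide 2 it was at 83.4 ± 2.96 FPKM and did not pass, with a log2 difference of 0.08 (95% interval -0.04 to 0.19, limma adjusted p = 0.213). An increase as large as that of guide 1 thus lay outside the interval for guide 2.

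The remaining members with a row were close to 0. Pkp3, the plakophilin of most epithelial layers, was listed at 0, 0.0153 and 0 FPKM in the control, against 0.204, 0.0299 and 0.196 in the guide 1 and 0.317, 0.176 and 0.188 in the guide 2 libraries. All 6 knockout libraries thus lay above the control, at levels under 1 FPKM where depth is unknown. With no filter on low values Pkp3 passed for guide 2 (limma adjusted p = 0.0117) and not for guide 1 (limma adjusted p = 0.0695). Col17a1, a transmembrane collagen of the hemidesmosome, lay between 0 and 0.0596 FPKM in all 9 libraries, with overlapping groups, and was not called in any comparison without the filter. Its limma adjusted p there lay between 0.331 and 0.762.

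With guide 1, 4 of the 4 tested members were called higher. Of all tested genes 68.1% were called with guide 1, 30.2% higher and 37.9% lower. The excess of lower calls depends on scaling: calls in the higher direction made up 44.4% as deposited and 51.0% after rescaling by trimmed means. With guide 2, 3 of the 4 were called higher, where 65.4% of all tested genes were called, 31.9% higher and 33.5% lower. The libraries of the guide 1 group lay above all control libraries for 4 of 4 members, and those of guide 2 for 3 of 4. Over all tested genes the groups did not overlap for 71.9% with guide 1, 32.3% above the control, and for 68.6% with guide 2, 33.1% above it. Called higher with each guide were 3 of 4 members, where 22.6% of all tested genes were called higher and 26.2% lower with each, a count that includes the shared side noted above and the same 3 control libraries. The median log2 fold change of the tested members was 1.90 with guide 1 and 1.39 with guide 2, where the medians of all tested genes were -0.04 and -0.03. These members were chosen with earlier results known, so their counts and medians are description and not support. They carry no separate test as a set, and 6 of the 10 listed genes are not among them. In bulk RNA of a culture, more cells expressing a gene and more RNA per cell cannot be told apart.

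The direct comparison of guide 2 with guide 1, in which the control cancels, called 4 of 4 tested members, 1 higher and 3 lower with guide 2. Of all tested genes 54.5% were called, 31.2% higher and 23.3% lower. The guide groups did not overlap for 4 of 4 members and for 61.5% of all tested genes, with guide 2 above for 34.8%. Pkp1 was higher with guide 2, by 0.92 on the log2 scale (SE 0.0991, limma adjusted p = 2.61e-05), at 2.09 times its guide 1 level. Pkp2 was lower with guide 2 by 0.99 (95% interval -1.15 to -0.82, limma adjusted p = 2.07e-06), and Jup by 1.28 (95% interval -1.42 to -1.14, limma adjusted p = 9.36e-08). Perp was lower by 0.33 (95% interval -0.44 to -0.21, limma adjusted p = 0.000333). Pkp1 was thus the 1 tested member with a higher level in guide 2 than in guide 1.

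**Figure D2:**
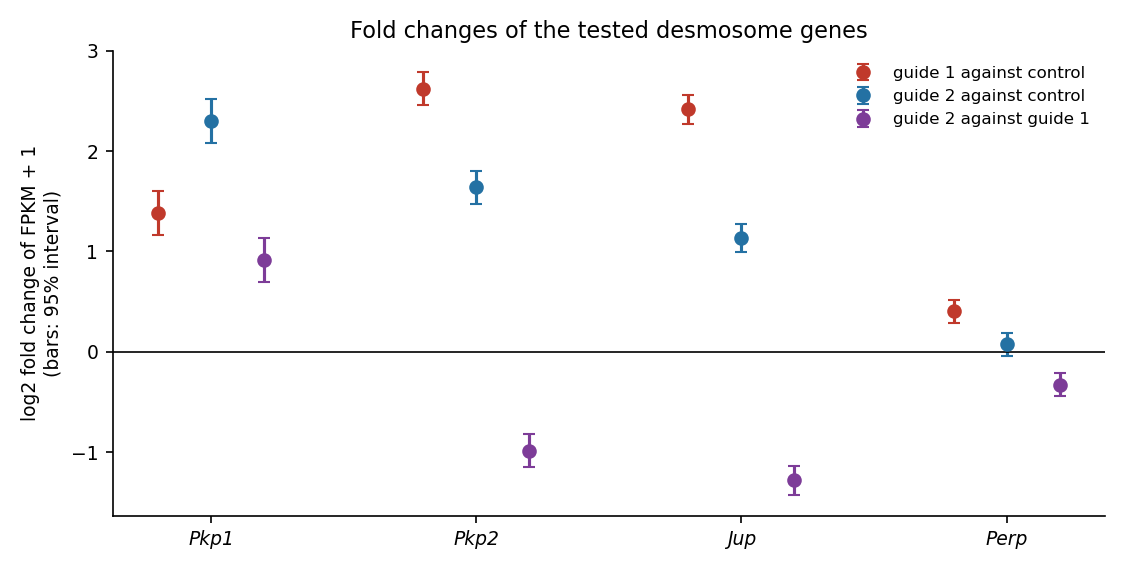
Log2 fold change of FPKM + 1 (vertical axis) of each tested member for guide 1 against control, guide 2 against control, and guide 2 against guide 1. Points are limma estimates and bars their 95% intervals. Only Pkp1 lay above 0 in the comparison of the guides (0.92), and only the interval of Perp with guide 2 (-0.04 to 0.19) included 0.

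The balance between the plakophilins turned over between the knockouts. FPKM is a level per length, so levels of different genes can be set beside each other. The ratio of Pkp2 to Pkp1 was 0.717, 1.31 and 1.10 in the control, 2.63, 2.79 and 2.61 in the guide 1 knockout, and 0.629, 0.551 and 0.60 in the guide 2 knockout. Guide 1 lay above and guide 2 below every control library. The log2 ratio differed by 1.41 between guide 1 and control, by -0.77 between guide 2 and control, and by -2.18 between guide 2 and guide 1 (two-sided exact permutation test, p = 0.1 for each, the smallest that 3 against 3 allows). This ratio was chosen after the values were seen, and the p of all 12 ratio tests was 0.1 also after Benjamini-Hochberg adjustment.

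The summed level of both genes differed far less between the knockouts than their ratio. Pkp1 plus Pkp2 came to 2.13 ± 0.395 FPKM in the control, 16.02 ± 0.715 under guide 1 and 14.5 ± 0.463 under guide 2 (SD, n = 3). The knockout groups did not overlap, with a lowest sum of 15.5 FPKM in guide 1 and a highest of 15.0 in guide 2. Pkp4, a relative of p120 catenin that is found at adherens junctions as well as desmosomes, was the main plakophilin transcript throughout. Its share of the summed FPKM of the 4 plakophilins was 93.3 ± 1.07% in the control, 60.3 ± 0.653% under guide 1 and 53.2 ± 0.847% under guide 2. Pkp1 took 3.39 ± 1.01%, 10.7 ± 0.176% and 28.9 ± 0.340%, and Pkp2 took 3.33 ± 0.349%, 28.6 ± 0.854% and 17.1 ± 0.951%, in the same order. Part of the falling share of Pkp4 was its own level, which went from 29.5 ± 1.99 FPKM to 24.6 ± 1.10 and 16.8 ± 0.5005.

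Ordered by FPKM within a group, the armadillo genes of cell junctions ran from Ctnnb1 (beta-catenin) through Ctnnd1 (p120 catenin) and Pkp4 in all 3 groups, and the desmosomal members followed. In the control Jup came next, then Pkp1 and Pkp2, which overlapped each other, then Pkp3. With guide 1 the order was Jup, Pkp2, Pkp1, Pkp3, and with guide 2 it was Pkp1, Jup, Pkp2, Pkp3, with no overlap between neighbours. Plakoglobin and beta-catenin are close relatives that share cadherin partners. The ratio of Jup to Ctnnb1 was 0.0280 ± 0.00188 in the control, 0.139 ± 0.00592 under guide 1 and 0.0503 ± 0.00331 under guide 2, with no overlap between groups (two-sided exact permutation test, p = 0.1 for each pair of groups, the smallest possible). Ctnnb1 itself rose from 111 ± 4.33 FPKM to 150 ± 3.56 and 159 ± 2.32, which on the log2 scale is 0.43 and 0.51, each with an SE of 0.0417. It was added to the named genes after its values were seen.

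**Figure D3:**
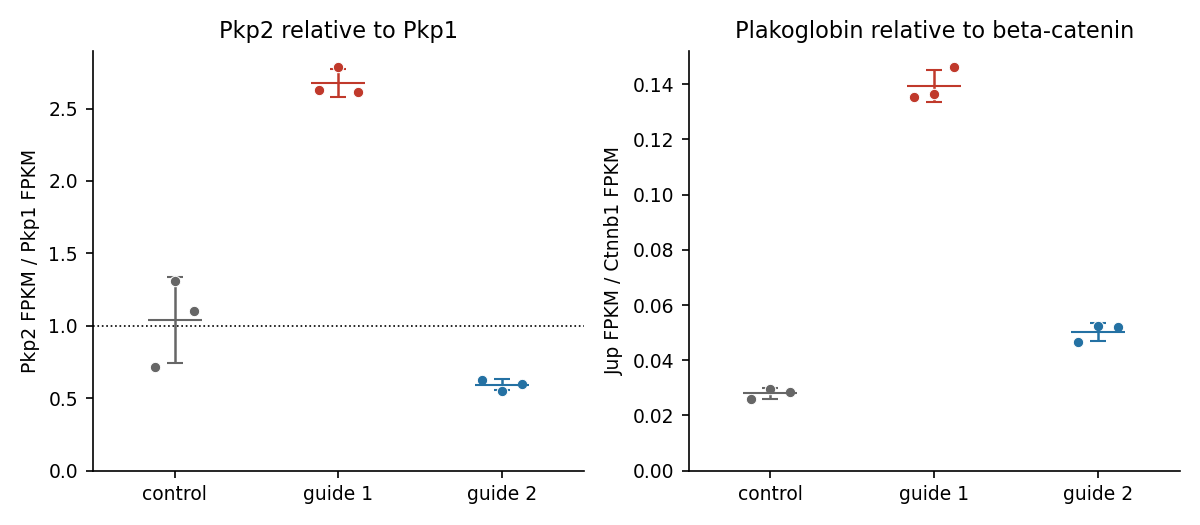
Ratios of FPKM within each library: Pkp2 to Pkp1 on the left, with a dotted line at 1, and Jup (plakoglobin) to Ctnnb1 (beta-catenin) on the right. Both vertical axes are linear and start at 0, points are libraries, and lines and bars are means and SDs over 3 libraries. Pkp2 to Pkp1 averaged 1.04 in the control, 2.68 under guide 1 and 0.593 under guide 2, and Jup to Ctnnb1 was highest with guide 1 (0.139).

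Likeness of pattern was measured as the root mean square difference of log2(FPKM + 1) values, centred on the control mean, over the 9 libraries. Closest to Pkp1 were Cgref1 at 0.0879 log2 units, Sema3a at 0.166 and Egr1 at 0.166. Cgref1 stood at 0.698 ± 0.127 FPKM in the control, 3.43 ± 0.105 under guide 1 and 7.56 ± 0.514 under guide 2. Closest to Pkp2 were Gask1b at 0.0910 log2 units, Tpd52l1 at 0.187 and Fam110c at 0.206. Gask1b stood at 0.538 ± 0.0267, 8.03 ± 0.617 and 3.503 ± 0.1501 FPKM in the same order. Genes were ranked over 3 groups of libraries only, so a close rank says little beyond the 3 group levels.

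Of 11 desmosome genes outside the set, 4 had a row and 3 were tested. With guide 1, 1 was called higher and 1 lower, and with guide 2, 2 were called higher and 1 lower. The shares of all tested genes called in either direction were 68.1% and 65.4%. Ppl encodes periplakin, a plakin that links desmosomes to the cornified envelope, and rose from 0.753 ± 0.0778 FPKM to 3.33 ± 0.129 in the guide 1 and 2.07 ± 0.254 in the guide 2 knockout. With a control mean under 1 FPKM, Ppl passed the filter only through the knockouts, so its rise is tied to the filter. Cdsn encodes corneodesmosin, an adhesive protein of late desmosomes. The control libraries measured 1.37, 0.924 and 0.554 FPKM, the guide 1 libraries 1.197, 0.846 and 1.09, and the guide 2 libraries 3.597, 4.21 and 4.03. Guide 1 overlapped the control (limma adjusted p = 0.597), guide 2 lay above every other library (log2 fold change 1.36, SE 0.139), and Cdsn was, like Pkp1, higher with guide 2 than with guide 1. Pkp4 fell by 0.25 with guide 1 and by 0.78 with guide 2 on the log2 scale.

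Hemidesmosomes anchor the keratin filaments to the basement membrane in place of a neighbouring cell. Of 14 listed genes of this anchor, 9 had a row and 6 were tested. With guide 1, 6 were called higher, and with guide 2, 4 were, with 0 lower in either. Across the alternatives, the filter at 5 FPKM aside, these counts of higher genes fell to as low as 5 and 3. The shares of all tested genes called higher were 30.2% and 31.9%. The list medians were 1.36 and 0.31, where those of all tested genes were -0.04 and -0.03. This list too was chosen with earlier results known, so these values are description only. Col7a1, the collagen of anchoring fibrils, stood at 1.35 ± 0.0276 FPKM in the control, 10.3 ± 1.41 under guide 1 and 4.94 ± 0.749 under guide 2. Plec, the plakin that ties keratin to the hemidesmosome, stood at 6.43 ± 0.564, 19.9 ± 1.64 and 12.3 ± 1.33 FPKM. Itga6, the integrin chain of the hemidesmosome, was at 2.23 ± 0.0314 FPKM in the control, 9.49 ± 0.373 under guide 1 and 2.34 ± 0.262 under guide 2, where it did not pass (limma adjusted p = 0.554). Between the guides, 5 of the 6 were lower with guide 2, the direction of Pkp2, Jup and Perp, and 0 were higher. Among all tested genes, 23.3% were called lower and 31.2% higher with guide 2.

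Adherens junctions couple classical cadherins to actin. Of 19 listed symbols, which hold both Eplin and Lima1 for the same gene, 9 had a row and 8 were tested. With guide 1, 5 were called higher and 2 lower, and with guide 2, 3 were called higher and 2 lower, where 68.1% and 65.4% of all tested genes were called. Rescaling by trimmed means made the last count of higher genes 6, and leaving out guide 2 replicate 1 made it 5. Vcl, the actin linker vinculin, rose from 16.4 ± 1.69 FPKM to 53.1 ± 3.49 and 45.4 ± 3.89. Cdh3 (P-cadherin) fell from 14.8 ± 0.667 FPKM to 0.369 ± 0.105 and 0.492 ± 0.0474 under guide 1 and guide 2. Plekha7, an adaptor of p120 catenin, fell from 4.38 ± 0.232 FPKM to 0.386 ± 0.0535 and 0.459 ± 0.0387. The log2(FPKM + 1) scale understates falls to such levels. On it Cdh3 changed by -3.527 and -3.4003, and Plekha7 by -1.96 and -1.88. Cdh3 and Plekha7 thus fell in the libraries in which Pkp1, Pkp2 and Jup rose.

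At tight junctions, which seal the space between epithelial cells, 10 of 19 listed genes had a row and 5 were tested. With each guide 2 were called higher and 2 lower, where 68.1% and 65.4% of all tested genes were called. With guide 2, 1 was lower with no filter, without guide 2 replicate 1 or without control replicate 3. Cgnl1 (paracingulin) rose from 0.668 ± 0.0947 FPKM to 6.19 ± 0.383 and 3.47 ± 0.294 with guide 1 and guide 2. Cldn1 (claudin 1) rose from 0.121 ± 0.0318 FPKM to 3.04 ± 0.574 and 1.03 ± 0.137. On the log2(FPKM + 1) scale, which understates changes this low, Cgnl1 rose by 2.11 and 1.42 and Cldn1 by 1.84 and 0.86. Each lay under 1 FPKM in the control and passed the filter only through the knockouts, so its rise is tied to the filter. Both were higher with guide 1 than with guide 2. Those called lower were Cldn12 (-0.25 and -0.23) and Pard3 (-0.23 and -0.25), named after their values were seen, and it was Cldn12 that did not pass with guide 2 under those alternatives.

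Of 19 keratin genes, the filaments that desmosomes hold, 10 had a row and 2 were tested. Krt18, a keratin of simple epithelia, stood at 3.70 ± 0.561 FPKM in the control, 119 ± 6.56 under guide 1 and 5.01 ± 0.910 under guide 2, and Krt80 at 1.39 ± 0.0875, 17.9 ± 1.27 and 2.05 ± 0.139. Both were called higher with each guide, but for guide 2 Krt18 no longer passed without guide 2 replicate 1 (log2 fold change 0.23, limma adjusted p = 0.0533), without control replicate 2 (0.32, limma adjusted p = 0.0515), without control replicate 3 (0.29, limma adjusted p = 0.0614) or with no filter (0.35, limma adjusted p = 0.0559). Called higher with each guide were 22.6% of all tested genes. The other keratins with a row, among them Krt7, Krt8 and Krt19, had a mean under 1 FPKM. Relative to the control, Krt18 and Krt80 rose 32.1-fold and 12.9-fold with guide 1 against 1.35-fold and 1.48-fold with guide 2. For Pkp2 these folds were 11.03 and 5.10.

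**Figure D4:**
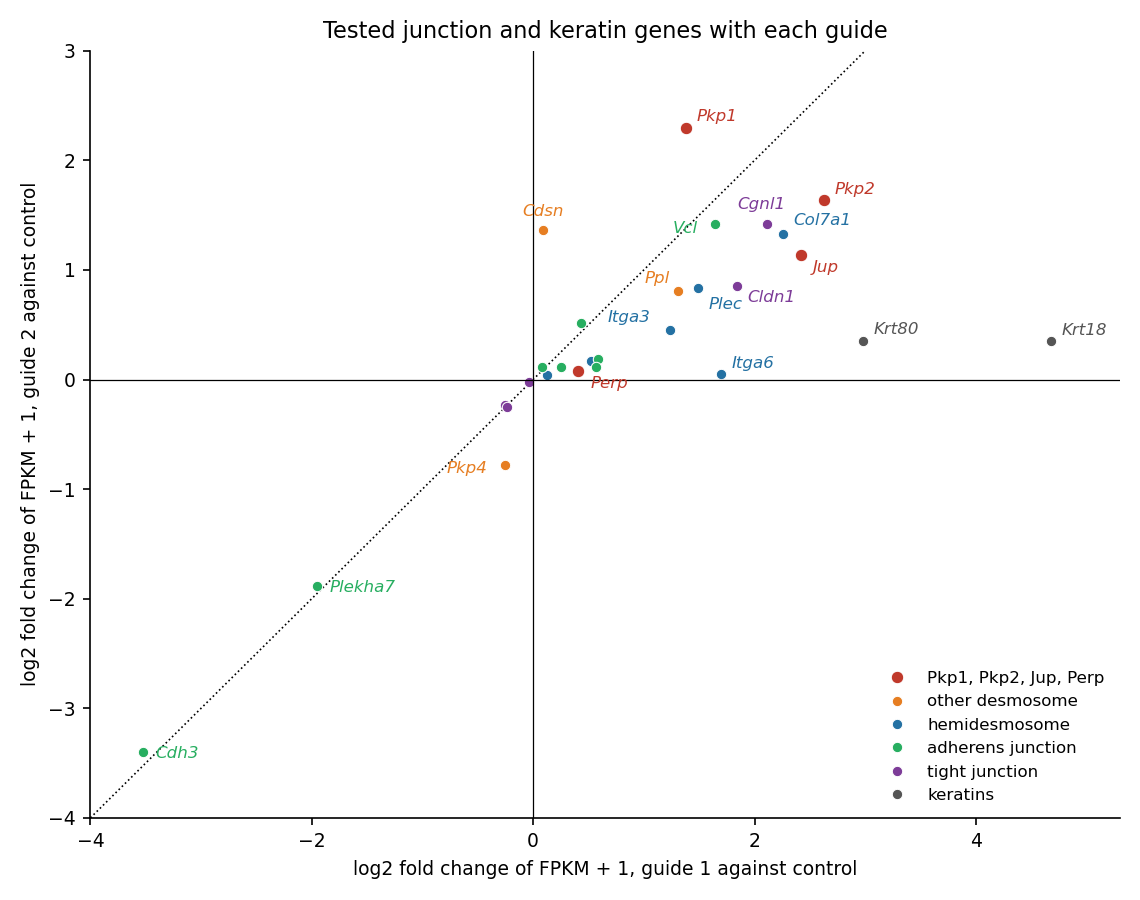
Log2 fold change of FPKM + 1 of the tested junction and keratin genes, with guide 1 against control on the horizontal and guide 2 against control on the vertical axis. Each point is a gene, coloured by its list, and the dotted line marks equal change with each guide. Pkp1 and Cdsn lay above the line, Pkp2, Jup, Col7a1 and Krt18 lay below it, and Cdh3 lay on the lower side of 0 with both guides. The guides share their control libraries.

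Of 18 listed transcription factors known from epithelial differentiation, 11 had a row and 4 were tested, of which 1 was higher and 3 lower with guide 1, and 1 was higher and 2 lower with guide 2, where 68.1% and 65.4% of all tested genes were called. Klf4, a factor of epithelial barrier formation, stood at 2.06 ± 0.350 FPKM in the control, 3.87 ± 0.597 under guide 1 and 8.92 ± 0.221 under guide 2, the order of groups seen for Pkp1. With guide 1 and guide 2, Cebpa changed by -2.999 and -2.24 on the log2 scale and Pitx1 by -0.23 and -1.73. Of 10 repressors of epithelial genes, 8 were tested, of which 3 were higher and 3 lower with guide 1, and 3 were higher and 2 lower with guide 2. These counts lie near the shares of all tested genes called, 68.1% and 65.4%, and are no result about repressors. Twist2 stood at 2.51 ± 0.558, 9.25 ± 2.00 and 5.60 ± 0.306 FPKM in control, guide 1 and guide 2, and Snai1 at 27.9 ± 1.35, 9.21 ± 1.25 and 19.5 ± 1.63. Foxc2 was listed at 0, 0.0916 and 0.179 FPKM in the control and measured 4.09 ± 0.241 FPKM with guide 1, while with guide 2 it was at 0.112 ± 0.0271 and did not pass.

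Cornified envelope genes, whose products are cross-linked at desmosomes in the uppermost cells, had 6 rows of 22 listed symbols and 4 tested genes. Lor and Loricrin, names of the same gene, are both among the 22. With guide 1, 2 were called higher and 2 lower, and with guide 2, 1 higher and 2 lower. For this list and the next, the shares of all tested genes called were 68.1% and 65.4%. Anxa1, a membrane-binding annexin, rose from 90.1 ± 0.969 FPKM to 435 ± 9.95 and 148 ± 4.44, while Sprr2a1, a small proline-rich envelope protein, fell from 5.46 ± 0.145 FPKM to 0.109 ± 0.0105 and 1.12 ± 0.152. Of 16 listed regulators of desmosome assembly and shedding, 9 were tested. With guide 1, 2 were called higher and 3 lower, and with guide 2, 4 higher and 3 lower. Without guide 1 replicate 3, 1 was higher with guide 1.

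Markers of cell types were examined beside these values. Of 10 squamous markers 4 had a row, and Krt5, Krt14, Krt6a, Trp63, Cdh1 and Epcam had none, so the labelled cell type could not be checked against its defining keratins. The summed level of the 4 lay between 149 and 154 FPKM in the control. It was between 125 and 131 with guide 1 and between 64.9 and 68.5 with guide 2. Most of this sum was Pitx1 and Sox2. Sfn, another of the 4, went the other way, from 1.03 ± 0.177 FPKM to 2.99 ± 0.421 and 1.61 ± 0.238. Sfn was called higher with each guide (limma adjusted p = 1.43e-05 and 0.0115) and was named after its values were seen. Glandular epithelium markers, 7 rows of 11, summed to between 25.9 and 27.8 FPKM in the control, 165 and 181 with guide 1, and 175 and 188 with guide 2. Their rise was carried by Krt18 in guide 1 and by Aqp5 in guide 2, at 176 ± 5.42 FPKM against 23.3 ± 0.903 in the control, and the other 5 had a mean under 1 FPKM. Aqp5 is named here after its values were seen.

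Pkp2 is also a heart gene, and of 12 markers of cardiac and skeletal muscle 5 had a row. Their sum was between 0.0403 and 0.792 FPKM in the control, 3.62 and 4.24 with guide 1, and 1.27 and 1.42 with guide 2. Tnnt2, the cardiac troponin T, made up most of it in the knockouts, with 0.0498 ± 0.0106 FPKM in the control, 3.68 ± 0.298 under guide 1 and 1.30 ± 0.110 under guide 2, and the other 4 had a mean under 1 FPKM. Fibroblast markers, 5 rows of 15, summed to between 4.52 and 4.71 FPKM in the control, 11.6 and 14.8 with guide 1, and 19.9 and 22.1 with guide 2, with Fbn1 at 0.760 ± 0.0569, 2.73 ± 0.222 and 6.29 ± 0.631. Postn, another fibroblast marker, had log2 differences of 0.20, which did not pass, and 1.96, and was named after its values were seen. Twist2, also in this list, ran the other way between the guides (limma adjusted p = 0.00457). It was at 9.25 ± 2.00 FPKM with guide 1, most of the sum there, and at 5.60 ± 0.306 with guide 2. Leukocyte markers, 3 rows of 14, summed to between 0.473 and 1.08 FPKM in the control, 1.47 and 1.82 with guide 1, and 2.05 and 2.67 with guide 2, the order of groups seen for Pkp1. Cd68, the only one at a mean of 1 FPKM or more, rose by 0.51 and 0.94 on the log2 scale. Endothelial markers summed to at most 1.68 FPKM and melanocyte and nerve markers to at most 0.781. Among the defining markers, Col1a1, Col3a1 and Pdgfra of fibroblasts, Ptprc of leukocytes, Pecam1 and Cdh5 of endothelium, Actc1 and Myh6 of the heart and Sox10 of melanocytes and glia had no row. Twist2, Krt18 and Pitx1 each stand in a marker list and in a list above. The part of these markers in the changes of the desmosome genes was not tested.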

How the data were processed

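The values are FPKM per gene and library, per the file headers, deposited by the authors as 1 table of 9 libraries. Per the labels' protocols, the libraries were stranded, paired-end and made from poly(A) RNA. Tools named per the submitters' processing notes are HISAT2, StringTie, cutadapt and FastQC. The sources used here do not give which version of each was run, nor a build or annotation. No sample column was left unmapped (0).

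Groups and replicate numbers came from the sample titles. Of 15620 rows, 174 that share 62 symbols were left out, and 8481 of the remaining 15446 genes with a mean under 1 FPKM were not tested. That mean is over all 9 libraries, so a gene low in one group can pass only through another, which ties its direction to the filter. Of the genes named from the lists, Ppl, Cdsn, Cgnl1, Cldn1, Foxc2, Fbn1, Cd68 and Tnnt2 had a control mean under 1 FPKM. Cdh3 and Plekha7 had both knockout means under 1 FPKM. Linear models on log2(FPKM + 1) were fitted with limma 3.58.1 (R 4.3.3) over 6965 genes and 9 libraries, letting the prior variance follow the mean. A call is a two-sided p under 0.05 after Benjamini-Hochberg adjustment over all tested genes. Ratios were tested with exact permutation tests in SciPy 1.17.1. The fit was tested on simulated data. No pair of libraries held identical values. In GENCODE M21 (GRCm38), exons of the 6 members with a row overlapped exons of 0 other genes.

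The members and lists were chosen with earlier results of these data known. All members were named. Of each other list, the rule named at most the 3 genes with the largest mean change over both guides. It named 2 each of the tight junction and cornified envelope lists and at most 1 of a marker list. None of the regulators was named. Ctnnb1, Cldn12, Pard3, Aqp5, Postn and Sfn were named beyond this rule, after their values were seen. One gene of the tight junction list is not reported here. Nearest patterns were sought for Pkp1 and Pkp2, passing over predicted genes and pseudogenes. The fit was repeated with quantile normalization, with rescaling by means trimmed by 30% at both ends, with a pseudocount of 0.1, without the filter, with the filter at 5 FPKM, with a replicate block, with 1 prior variance for all genes, on the compared groups alone, and without each library in turn. An alternative in which p-values were multiplied by 1.5 was chosen after seeing the data.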

Additional observations from a re-analysis of the deposited data

Results flagged for a closer look

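For each gene below, the effect of guide 2 differed from that of guide 1 by the direct limma test between the knockout groups (adjusted p under 0.05). Values are the effect of guide 2 minus that of guide 1 on the log2 scale. This held for 4 of 4 tested desmosome members, where 54.5% of all tested genes differed. It also held for 22 of the 24 genes named from the other lists, which were picked for a large change from the control, so their share is no result. Of the genes named later, Ctnnb1, Cldn12 and Pard3 did not pass (limma adjusted p = 0.12, 0.818 and 0.813). Aqp5 (1.77), Postn (1.76) and Sfn (-0.61) did (limma adjusted p = 2.41e-09, 1.41e-06 and 0.000672). Among the members the difference was 0.92 for Pkp1, -0.99 for Pkp2, -1.28 for Jup and -0.33 for Perp. All 3 libraries of one guide lay beyond all 3 of the other for each of these.

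Among other desmosome and hemidesmosome genes it was 1.28 for Cdsn, -0.50 for Ppl, -0.52 for Pkp4, -0.93 for Col7a1, -0.66 for Plec and -1.65 for Itga6. At adherens and tight junctions it was -0.22 for Vcl, -0.69 for Cgnl1 and -0.98 for Cldn1. The keratins Krt18 and Krt80 differed by -4.33 and -2.63. Among factors and envelope genes the values were 0.76 for Cebpa, 1.03 for Klf4, -1.50 for Pitx1, -0.62 for Twist2, -2.19 for Foxc2, 1.01 for Snai1, -1.55 for Anxa1 and 0.93 for Sprr2a1. Among cell type markers they were 0.97 for Fbn1, 0.42 for Cd68 and -1.03 for Tnnt2. Vcl is the weakest of these, with an adjusted p of 0.0447 in limma that was over 0.05 under 9 alternatives.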

How the results depend on the processing

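The 4 tested members kept their direction and their side of the threshold in all 213 recomputed values. Perp with guide 2 stayed above the threshold, with a limma adjusted p between 0.0555 and 0.516. The number of members called was 4 with guide 1, 3 with guide 2 and 4 between guides, the same when any 1 library was left out and when p-values were multiplied by 1.5. A filter of 5 FPKM removes Pkp1 from the test, which gave 3, 2 and 3. No filter adds Pkp3 and Col17a1 and gave 4, 4 and 4. With the replicate block the counts were 4, 3 and 4, and it changed no call of a member. Replicate numbers did not pair the libraries: the correlation of deviations from group means lay between -0.107 and 0.245 for equal numbers and between -0.234 and 0.163 for unequal ones.

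Log2 fold changes of Pkp1, Pkp2 and Jup moved most with a pseudocount of 0.1, where Pkp2 with guide 1 reached 3.36. Perp with guide 1 moved most with rescaling by trimmed means, to 0.47. Among the other named genes, 5 values that did not pass the test changed sign. Cdsn with guide 1 was -0.067 without control replicate 3, in a range up to 0.24 when 1 library was left out. Foxc2 with guide 2 was -0.025 after quantile normalization and -0.029 without control replicate 1, in a range up to 0.090. Itga6 with guide 2 was -0.012 without guide 2 replicate 3, in a range up to 0.10. Plekha7 between guides was -0.027 after quantile normalization. Another 13 lost their call, all of Krt18 with guide 2 or Vcl between guides. Cldn12, Pard3, Aqp5, Postn and Sfn were not in these counts. Of these, Cldn12 with guide 2 lost its call under the alternatives given above. The cause was not tested. Depth is unknown, so counting error at levels near 1 FPKM could not be set apart from other spread.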
